A study of Mus musculus with 1778 samples.

Results

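The 35 genes described here carry glucose into the cell, break it down to pyruvate and lactate, sense oxygen, or are known targets of the hypoxia response. They were taken by symbol from the 24919 genes of a count table of single mouse cells, and all 35 were found: 4 carriers, 10 genes of upper and 6 of lower glycolysis, 5 that decide the fate of pyruvate, 3 oxygen sensors and 7 hypoxia targets. The study sorted TdTomato-labelled cells one by one from C57BL/6 embryos with the genotype Wnt1::Cre; Rosa26TdTomato, and made their libraries with Smart-Seq2, which covers whole transcripts on plates and has no molecular identifiers. The embryos stood at 4, 6, 8 or 10 somites, and every group shares the genotype and the strain. Cre under Wnt1 control marks every cell with a history of Wnt1 transcription, which takes in the dorsal neural tube as well as the cranial neural crest named on the labels. After cells with few reads or genes were left out, 1722 of 1778 remained, of which 12.8% came from 4 somites, 48.4% from 6, 13.2% from 8 and 25.7% from 10. The labels name no embryo, so each stage is 1 pool of cells. No test between stages was possible for that reason, and the intervals given cover counting error only, as reads are not independent molecules.

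Glycolysis turns glucose into pyruvate in the cytoplasm. Facilitative carriers of the Slc2 family let glucose in, hexokinase traps it as glucose 6-phosphate, phosphofructokinase commits it to breakdown, and the lower steps return ATP. Lactate dehydrogenase then makes lactate, which leaves through Slc16 carriers, unless the pyruvate dehydrogenase complex feeds the pyruvate to mitochondria, a step that the Pdk kinases block. When oxygen is short, the prolyl hydroxylases Egln1 and Egln3 stop marking the factor Hif1a for breakdown. Hif1a with its partner then binds a short core, often ACGTG, beside many genes of this pathway. Mouse embryos at the start of somite formation are known for strong glycolysis, and the early neural tube and crest form in low oxygen.

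That core gives a view of the members' promoters. The 250 bases before the first RefSeq start listed for each gene on build GRCm38.p6 were searched for ACGTG on both strands, where the reverse strand reads CACGT and a CACGTG counts as 2 overlapping matches. Other starts of a gene were not searched, and the window of Ldha lies inside the gene's span given below. A window was held for 33 of the 35 members, Slc2a3 and Ero1l being the other two. It had at least 1 match in 17 of them (51.5%), against 16.6% of all 27025 genes with a window and 23.2% of the 7828 that reached 5 reads per 1000000 (CPM) in these cells. At least 2 matches stood in 9 members (27.3%), against 10.3% of those 7828 genes. Ldha held 5 matches, as 0.294% of those genes did, Hif1a held 3, and Slc16a1, Slc16a3, Hk2, Pfkm, Pgk1, Bnip3 and Ankrd37 held 2 each. A match is a stretch of letters and shows no binding. The windows of 4 members are printed because the results below turn on them: the main glucose carrier, the 2 lactate dehydrogenases, whose levels part between stages, and Pdk1. Capitals mark each match. Slc2a1 lies at chr4:119108495-119108744 (plus strand), Ldha at chr7:46845554-46845803 (plus), Ldhb at chr6:142507958-142508207 (minus) and Pdk1 at chr2:71872974-71873223 (plus), all read 5′ to 3′ towards the start.
Slc2a1: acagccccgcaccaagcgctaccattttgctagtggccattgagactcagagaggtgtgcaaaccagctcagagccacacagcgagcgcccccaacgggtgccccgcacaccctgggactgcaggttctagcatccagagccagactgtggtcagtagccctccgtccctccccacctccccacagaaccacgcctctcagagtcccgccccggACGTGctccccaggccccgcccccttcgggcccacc
Ldha: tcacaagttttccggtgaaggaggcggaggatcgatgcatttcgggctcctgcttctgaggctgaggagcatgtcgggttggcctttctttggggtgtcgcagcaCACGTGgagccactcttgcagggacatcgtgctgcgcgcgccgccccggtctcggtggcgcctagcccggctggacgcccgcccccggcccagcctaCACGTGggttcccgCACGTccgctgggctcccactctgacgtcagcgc
Ldhb: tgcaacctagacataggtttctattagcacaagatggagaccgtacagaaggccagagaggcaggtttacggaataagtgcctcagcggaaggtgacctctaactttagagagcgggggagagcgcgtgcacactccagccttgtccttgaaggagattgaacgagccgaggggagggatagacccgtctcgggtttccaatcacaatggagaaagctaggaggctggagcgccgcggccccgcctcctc
Pdk1: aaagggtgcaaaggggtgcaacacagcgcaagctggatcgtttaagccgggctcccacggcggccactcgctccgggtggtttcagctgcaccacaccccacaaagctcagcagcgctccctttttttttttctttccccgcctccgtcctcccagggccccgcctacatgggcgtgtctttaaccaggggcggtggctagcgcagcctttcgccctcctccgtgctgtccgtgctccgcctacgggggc
Slc2a1 had its match 36 bases before the start. Of the 5 matches of Ldha, 3 began 48, 47 and 34 bases before it, the others being an overlapping pair farther out. Ldhb and Pdk1 had no ACGTG on either strand. Only ACGTG was searched, and the related GCGTG, which the printed windows of Ldhb and Pdk1 hold, was not counted.

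The kept cells held between 60942 and 1007751 reads on genes, with medians of 470506, 343823, 517650 and 354095 at 4, 6, 8 and 10 somites. Levels are given in CPM, a gene's summed reads per 1000000 reads on genes, without spike-ins and without the ribosomal precursor Rn45s. The cells carried 8 numbers in their titles, read here as plates, in 12 combinations of stage and plate, and no plate held all 4 stages. Cells with at least 1 read of Sox10, a transcription factor of migrating crest, made up 17.7% of the cells of 4 somites, 32.8% at 6, 75.8% at 8 and 81.2% at 10, so most cells of the first 2 stages had no read of it. Markers of neuroepithelium, surface ectoderm and mesoderm summed to 88.1, 241.8 and 80.6 CPM at 10 somites, against 261.6, 503.8 and 37.2 CPM at 4. Erythroid markers summed to 1231 CPM in cells of 6 somites and 158.1 CPM in cells of 8 on the plate shared by 6, 8 and 10 somites, and to 7.99 CPM or less elsewhere. Immediate early and heat shock genes of dissociation summed to 936 and 928 CPM at 4 and 6 somites on the plate shared by these stages and to 178.6 CPM at the lowest. More than 9500 genes were seen in 9.76% of the cells, against a median of 6982 genes, and 95.8% of these cells had Sox10 reads. Of the same cells, 62.5% had reads of at least 3 markers of surface ectoderm, endothelium or blood, against 27.3% of the other cells. The cells with more than 9500 genes made up 13 of the 15 cells of 8 somites on the plate shared with 4 somites, 13 of the 21 on the smallest plate of 6 somites and 27 of the 55 cells of 10 somites on the plate shared with 6 and 8. Of them, 15.4%, 100% and 70.4% had reads of at least 3 such markers on these plates, in that order. Whether such wells hold 1 cell was not tested, and results that they move are given with and without them.

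Together the 35 genes took 5.36% of reads at 4 somites, 5.63% at 6, 4.79% at 8 and 4.18% at 10. Levels of different genes were compared per kilobase of exon, with the merged exons of the GENCODE vM21 model as length. Ldha, the lactate dehydrogenase chain that favours lactate, stood highest over all cells at 5559 CPM per kilobase. Pkm, pyruvate kinase, followed at 2758, Aldoa, the main aldolase, at 1016, Gapdh at 864 and Slc2a1 at 545.1. The next 3, Pgk1, Pgam1 and Tpi1, lay between 460.9 and 452.7 CPM per kilobase, closer together than the plates of 6 somites lay for each of them. The gene order ended with Vegfa at 0.702, Eno2 at 0.209 and Eno1 at 0.146 CPM per kilobase. Eno1, the usual enolase, had far fewer reads in all cells than its near-identical copy Eno1b, which had 66163, and the sources do not say how the counting shared reads between them, so the level of Eno1 is uncertain. Summed, they had 0.13 on the log2 scale at 10 over 4 somites, and Eno1 alone had −0.34. Gapdh, Ldha, Pkm and others have processed pseudogenes that could share their reads in the same way, and the isoforms of Pkm could not be told apart in counts per gene.

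Among the members with a mean of at least 5 CPM over 10 and 4 somites, the glucose carriers and one lactate dehydrogenase differed most between those stages. Slc2a1 (GLUT1, chr4:119108711-119137983 on mm10), the carrier that most cells use, stood at 3212 CPM at 4 somites (3202 to 3223, exact Poisson 95% interval), 2507 at 6, 1036 at 8 and 661.7 (657.9 to 665.6) at 10. On single plates it had 3311 and 3159 CPM at 4 somites, 2043 to 3121 CPM on the 5 plates of 6 somites, 966 and 2057 CPM at 8, and 892.6, 619.5 and 500.9 CPM at 10. Every plate of 10 somites thus lay below every plate of 4 and of 6 somites, and the 5 plates of 6 somites differed by up to 1.53-fold among themselves. The high plate of 8 somites is the one with 15 cells. Slc2a1 was 4.85-fold lower at 10 than at 4 somites, a log2 ratio of −2.28 (−2.29 to −2.27). The level in the median cell of a stage was 2571, 1917, 652.5 and 405.9 CPM at 4, 6, 8 and 10 somites. Slc2a1 was found in at least 99.3% of cells of every stage when each cell was thinned to 50000 reads.

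Slc2a3 (GLUT3, chr6:122727809-122801640), a carrier of high affinity known from neurons and the early embryo, stood at 1952, 1358, 791.2 and 561.3 CPM at 4, 6, 8 and 10 somites. It was 3.48-fold lower at 10 than at 4 somites, a log2 ratio of −1.80. On single plates it had 2229 and 1801 CPM at 4 somites, 1089 to 1516 CPM on the plates of 6, 801.4 and 643.6 CPM at 8, and 994, 486.7 and 176.5 CPM at 10. The plates of 10 somites lay below those of 4 and 6 without overlap and spread more than those of 6 somites. In the median cell the level was 1571, 766.9, 186.4 and 62.2 CPM, and the share of cells with a read at 50000 reads was 97.7%, 95.8%, 85.5% and 69.2%. A few cells carried much of the sum at the late stages: 1 cell with 22943 CPM held 44.6% of the Slc2a3 reads of 10 somites on the plate shared by 6, 8 and 10 somites, where the level without it was 561.1 CPM, against 993.9 with it. For 10 over 4 somites, Slc2a3 gave −2.05 without the cells of over 9500 genes, −3.41 without cells that had reads of at least 3 markers of surface ectoderm, endothelium or blood, and −1.23 without the largest plate of 10 somites.

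The lactate carriers differed less. Slc16a3 (MCT4), which exports lactate from glycolytic cells, stood at 670.8, 716.1, 592.8 and 418.6 CPM, −0.68 on the log2 scale at 10 over 4 somites, and its 3 plates of 10 somites, at 296.2 to 501.4 CPM, lay below all plates of 4 and 6. Slc16a1 (MCT1), which moves lactate in either direction, stood at 221.7, 263.8, 256.6 and 260.5 CPM. Its plates of 10 somites, at 245.2 to 277.4 CPM, lay above the 2 of 4 somites, at 226.1 and 219.3 CPM, and inside the range of 6 somites.

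**Figure D1:**
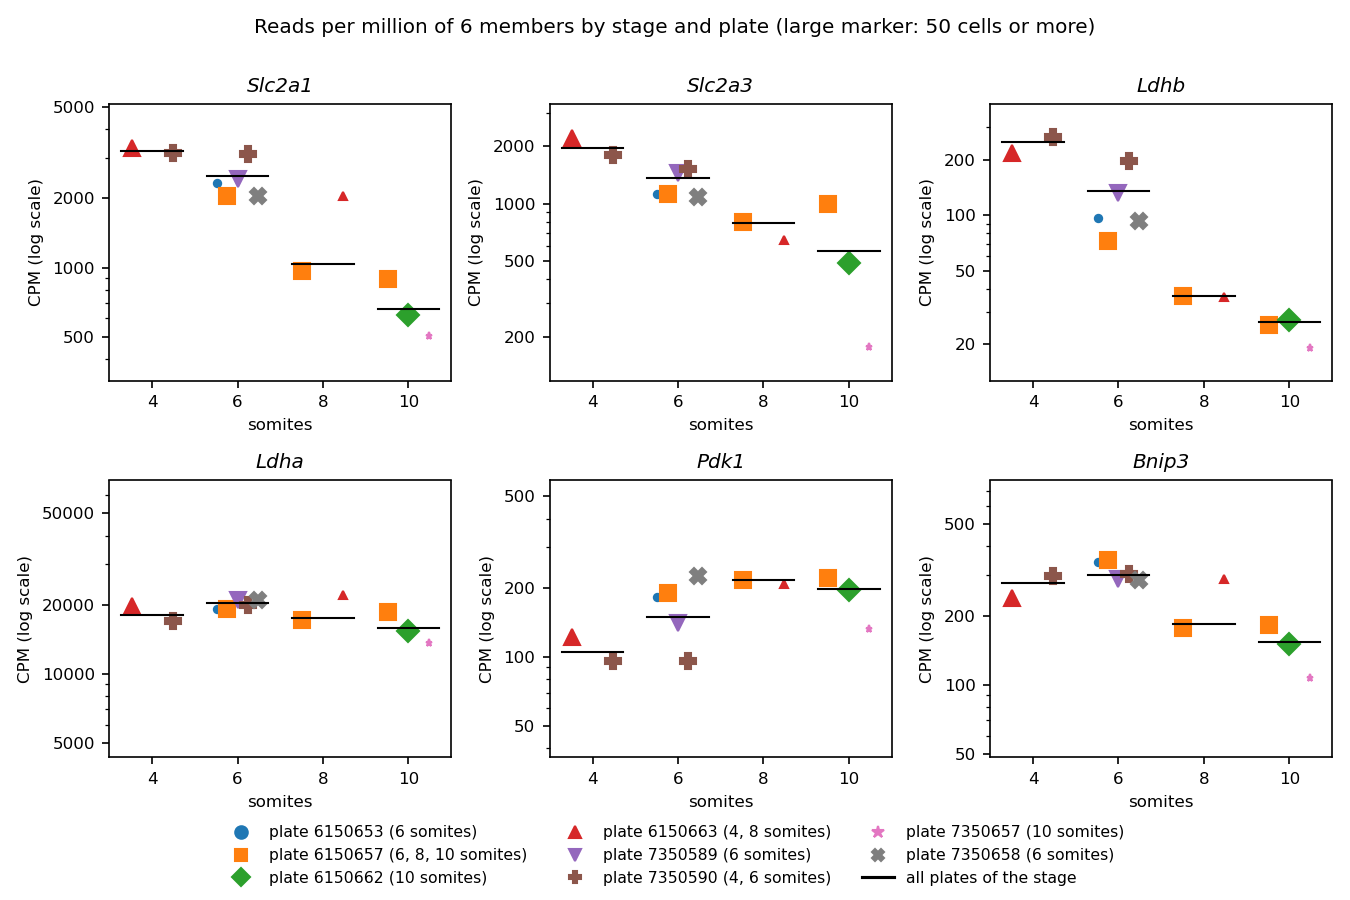
Levels of 6 members in CPM (log axis) against the stage in somites. Each marker is the summed cells of 1 plate at 1 stage, large where it has at least 50 cells, and the black line is the stage over all its plates. Slc2a1, Slc2a3, Ldhb and Bnip3 are lower on every plate of 10 somites than on any of 4, Pdk1 is higher on each, and Ldha overlaps.

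Of the 10 genes of upper glycolysis, all 10 were measured (a mean of at least 5 CPM over the 2 groups) and none differed by 2-fold between 10 and 4 somites over all plates. Their median log2 ratio was −0.29, against 0.01 over all 9810 measured genes. Hk1 and Hk2, the hexokinases, stood at 23.96, 21.3, 39.9 and 33.7 CPM and at 78.3, 58.95, 54.1 and 54.998 CPM. Gpi1, which turns glucose 6-phosphate into fructose 6-phosphate, stood at 924, 965, 902 and 795.8 CPM. Of the phosphofructokinases, the liver-type Pfkl held 1484 to 1716 CPM and the muscle-type Pfkm 40.1 to 61.9 CPM at the 4 stages. Pfkp, the platelet type, had 40.2 and 31.02 CPM on the plates of 4 somites, 29.99 to 59.5 CPM on those of 6, 46.2 and 60.99 CPM on those of 8 and 23.5, 27.6 and 24.1 CPM on those of 10. Its plates of 10 somites lay below all others, and exons of Pfkp overlap Pitrm1 on the opposite strand, which counts without strand could not separate. Pfkfb3, whose product activates phosphofructokinase, held 29.3 to 40.5 CPM. Aldoa stood at 3591, 4095, 3553 and 3461 CPM, and its plates of 10 somites (3321, 3469 and 3868 CPM) overlapped those of 4 (3458 and 3663 CPM) and of 6 (3485 to 4742 CPM). Aldoc, the brain-type aldolase, had 5.18 to 11.4 CPM on the plates of 10 somites, 4.22 and 5.16 CPM on those of 8, 5.28 to 25.2 CPM on those of 6 and 8.39 and 6.98 CPM on those of 4. Its spread over the plates of 6 somites, 4.78-fold, was wider than its difference between any stages. Tpi1, triose phosphate isomerase, stood at 1319, 1413, 1122 and 997 CPM.

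Of the 6 genes of lower glycolysis 4 were measured, and none of them differed by 2-fold between 10 and 4 somites. Gapdh, the dehydrogenase that opens the lower steps, stood at 3907, 3942, 3381 and 2854 CPM. Its plates of 10 somites, at 2644, 2873 and 3360 CPM, lay below those of 4, at 3524 and 4115 CPM, and those of 6, at 3687 to 4659 CPM. Pkm, the last enzyme, stood at 14774, 15154, 13293 and 11163 CPM. Its 3 plates of 10 somites held 12778, 10954 and 8423 CPM, below the 15724 and 14256 CPM of the plates of 4 and the 14724 to 15824 CPM of those of 6. On the log2 scale, 10 over 4 somites gave −0.45 for Gapdh, −0.40 for Pkm and −0.30 for Pgam1, the mutase between 3- and 2-phosphoglycerate. Pgk1, which makes the first ATP of the pathway, had 0.27. Eno1 and Eno2 stayed under the minimum of 5 CPM. Eno2, the enolase of neurons, had 0.161 CPM (28 reads) at 10 and 1.63 CPM at 4 somites, a log2 ratio of −3.32 (−3.97 to −2.76).

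**Figure D2:**
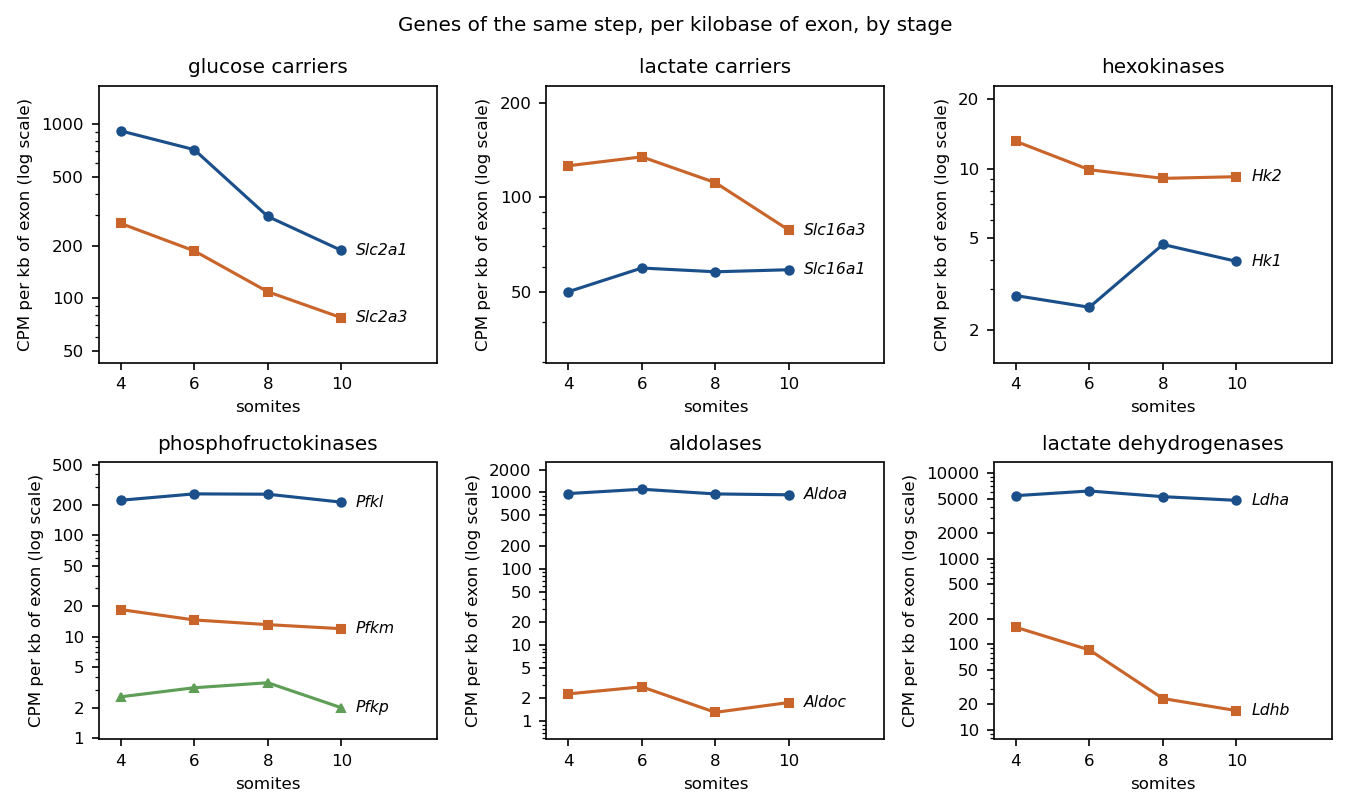
Genes that serve the same step, in CPM per kilobase of exon (log axis), against the stage in somites. Each point is the sum over all kept cells of a stage. The order of the genes of a step is the same at all 4 stages in each panel, and Ldhb drops at each stage while Ldha stays between 4787 and 6158 CPM per kilobase.

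At the pyruvate branch the 2 lactate dehydrogenase genes parted. Ldhb (chr6:142490249-142507957), the chain that favours the turn of lactate back into pyruvate, stood at 248.6 CPM at 4 somites (245.7 to 251.6), 135.2 at 6, 36.6 at 8, and was lowest at 10 with 26.5 (25.7 to 27.3). Ldhb was 9.38-fold lower at 10 than at 4 somites, a log2 ratio of −3.23 and the lowest of the 30 measured members. On single plates it had 215.98 and 266.4 CPM at 4 somites, 96.6, 72.7, 131.2, 196.2 and 93.5 CPM at 6, 36.7 and 36.2 CPM at 8, and 25.4, 27.1 and 19.1 CPM at 10. No plate of a later stage overlapped a plate of an earlier one. The share of cells with a read at 50000 reads was 95.9%, 82.6%, 59.5% and 46.2%. Ldha (chr7:46841475-46855627) stood at 17977, 20382, 17499 and 15844 CPM, with a log2 ratio of −0.18. Its plates held 19681 and 17051 CPM at 4 somites, 19146 to 20990 CPM at 6, 17184 and 22090 CPM at 8, and 18633, 15348 and 13652 CPM at 10, so 10 somites overlapped 4 and lay below 6. Per kilobase of exon, Ldha had 5431, 6158, 5287 and 4787 CPM and Ldhb 158.4, 86.1, 23.3 and 16.9 CPM at the 4 stages.

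Pdk1, a kinase that shuts the pyruvate dehydrogenase complex and a known hypoxia target, stood at 105.3, 149.8, 216.4 and 197.8 CPM. Its plates of 10 somites had 220.3, 196.3 and 132.6 CPM and those of 4 somites 122.5 and 95.99 CPM, so they did not overlap, but the plates of 6 somites covered 95.9 to 224.1 CPM. At 10 over 4 somites Pdk1 gave 0.91 on the log2 scale, under 2-fold. Pdk3, another such kinase, held 119.9 to 146.2 CPM at the 4 stages, and Pdha1, a subunit of the complex, 220.7 to 273.7 CPM. Exons of Pdha1 overlap Map3k15 on the opposite strand.

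Hif1a itself stood at 318.6, 310.2, 366.8 and 301.6 CPM, and 10 over 4 somites gave −0.08 on the log2 scale. Egln1 stood at 8.42, 13.4, 10.7 and 9.06 CPM. On single plates Egln1 had 9.95 and 7.59 CPM at 4 somites, 11.2 to 23.9 CPM at 6, 9.69 and 24.9 CPM at 8, and 5.97, 9.41 and 15.3 CPM at 10, with overlap between 10 and 4. Egln3 stood at 12.7, 18.9, 24.5 and 22.9 CPM. Its plates had 11.3 and 13.5 CPM at 4 somites, 11.04 to 44.1 CPM at 6, 24.7 and 22.2 CPM at 8, and 28.2, 22.7 and 5.28 CPM at 10, and the plates of 6 somites covered those of 4 and 8. The plates of 6 somites differed by 2.12-fold for Egln1 and 4.00-fold for Egln3, more than any 2 stages did.

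Of the 7 hypoxia targets 4 were measured, with 0 of them 2-fold lower or higher at 10 than at 4 somites. Bnip3, a mitochondrial receptor for mitophagy, stood at 276.5, 299.9, 183.9 and 154.04 CPM, with a log2 ratio of −0.84. On plates it held 238.5 and 297.1 CPM at 4 somites, 284.7 to 349.2 CPM at 6, 176.8 and 287.5 CPM at 8, and 181.7, 150.5 and 107.3 CPM at 10, so every plate of 10 lay below every plate of 4 and 6. Ero1l, an oxidase of the endoplasmic reticulum, stood at 49.3, 62.8, 59.3 and 58.6 CPM, P4ha1, a collagen prolyl hydroxylase, at 86.3, 117.9, 139.2 and 137.03 CPM, and Kdm3a, a histone demethylase, at 89.04, 84.5, 68.4 and 71.2 CPM. Vegfa, the growth factor for vessels, had 2.77, 4.24, 1.48 and 2.07 CPM, below the minimum. Ddit4, an inhibitor of mTORC1, had 4.71, 4.04, 1.91 and 1.65 CPM, and Ankrd37 had 4.25, 4.56, 2.89 and 2.93 CPM.

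Counted over all 30 measured members, 3 passed 2-fold downward at 10 over 4 somites, Slc2a1, Slc2a3 and Ldhb, as 5.44% of all measured genes did. None passed it upward, as 5.34% of genes did. The members' median log2 ratio was −0.21, and 21 of 30 were below 0. On plates, 14 of 30 members were lower on every plate of 10 than on every plate of 4 somites, against 19.5% of all genes, and 3 (Slc16a1, Hk1 and Pdk1) were higher on every one, against 14.4%. Between the 3 plates of 10 and the 5 of 6 somites, 14 members were lower without overlap, against 7.06% of all genes, and 0 were higher, against 4.67%. These 14 hold Slc2a1, Slc2a3, Slc16a3, Gpi1, Pfkl, Pfkp, Tpi1, Gapdh, Pgam1, Pkm, Ldha, Ldhb, Pdk3 and Bnip3. Between the 5 plates of 6 and the 2 of 4 somites, 3 members were lower without overlap (Slc2a1, Slc2a3 and Ldhb, against 4.99% of genes) and 4 higher (Slc16a1, Pfkl, Pdk3 and Egln1, against 4.88%). The comparisons with 10 somites share the same plates of that stage.

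A few plates held more than 1 stage, so that stages could be compared within a plate. On the plate shared by 4 and 6 somites, 0 of 30 measured members were 2-fold lower (1.11% of all genes) or higher (1.80%). Slc2a1 had 3121 CPM at 6 somites and 3159 at 4, Slc2a3 had 1516 and 1801 CPM, and Ldhb had 196.2 and 266.4 CPM. On the plate shared by 6, 8 and 10 somites, 2 members were 2-fold lower at 8 than in the 72 cells of 6 somites, Slc2a1 at −1.08 and Aldoc at −1.06, where 1.85% of genes were. None was 2-fold higher, where 3.39% of genes were. Ldhb, at −0.99, and Bnip3, at −0.98, lay at the edge. Without the cells of over 9500 genes, 4 were lower, Slc2a1 (−1.11), Aldoc (−1.42), Ldhb (−1.09) and Bnip3 (−1.02), where 2.06% of genes were, and 0 were higher, where 4.73% were. Between 55 cells of 10 and the same 72 cells of 6 somites, 4 members were 2-fold lower at 10, Slc2a1 (−1.19), Pfkp (−1.34), Ldhb (−1.52) and Egln1 (−1.49), against 5.10% of genes. None was 2-fold higher, against 5.85%. Without the cells of over 9500 genes 6 were lower: Slc2a1 (−1.54), Slc2a3 (−3.08, against −0.18 with them), Pfkp (−1.65), Aldoc (−1.99), Ldhb (−2.16) and Egln1 (−1.78), where 8.05% of genes were, and 0 were higher, where 8.16% were. Without only the 1 cell of 10 somites with the most Slc2a3 reads, Slc2a3 gave −1.01. It gave 0.17 without only such a cell of 6 somites, and −0.65 without such a cell at each stage. The comparison without the cells of over 9500 genes rests on 28 cells of 10 somites and 52 of 6, and the 6-somite cells of this plate are those with the erythroid reads, whose part in the ratios was not tested.

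Between 10 and 8 somites on the same plate, 0 members passed 2-fold, where 2.46% of genes were lower and 1.19% higher. Without the cells of over 9500 genes Slc2a3 (−2.67, against 0.31 with them), Pfkp (−1.29) and Ldhb (−1.07) were 2-fold lower at 10, on 28 cells of 10 somites, where 5.57% of genes were, and 0 were higher, where 2.68% were. On the plate shared by 4 and 8 somites, the 15 cells of 8 somites against 92 of 4 gave 2 members 2-fold lower, Slc2a3 at −1.79 and Ldhb at −2.57, where 7.01% of genes were. Egln1 was higher at 1.32, where 9.25% of genes were, and Slc2a1 was at −0.69. In that comparison 13 of the 15 cells had over 9500 genes, and what part this has was not tested. Over these 5 within-plate comparisons the log2 ratio of Ldhb lay between −2.57 and −0.44 and that of Slc2a1 between −1.19 and −0.02. They are not 5 separate repeats, as 3 of them use the same cells of the plate shared by 6, 8 and 10 somites. Spike-in reads were a share of 6.73% at 6 somites and 0.594% at 4 on their shared plate, and of 0.429%, 2.35% and 3.17% at 6, 8 and 10 on theirs. Scaled to them, all 30 members came out at least 2-fold lower at the later stage in 3 of these comparisons (6 against 4, 8 against 6 and 10 against 6), with medians of −3.60, −2.78 and −3.24, so every value here is relative to the reads of the same cells.

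**Figure D3:**
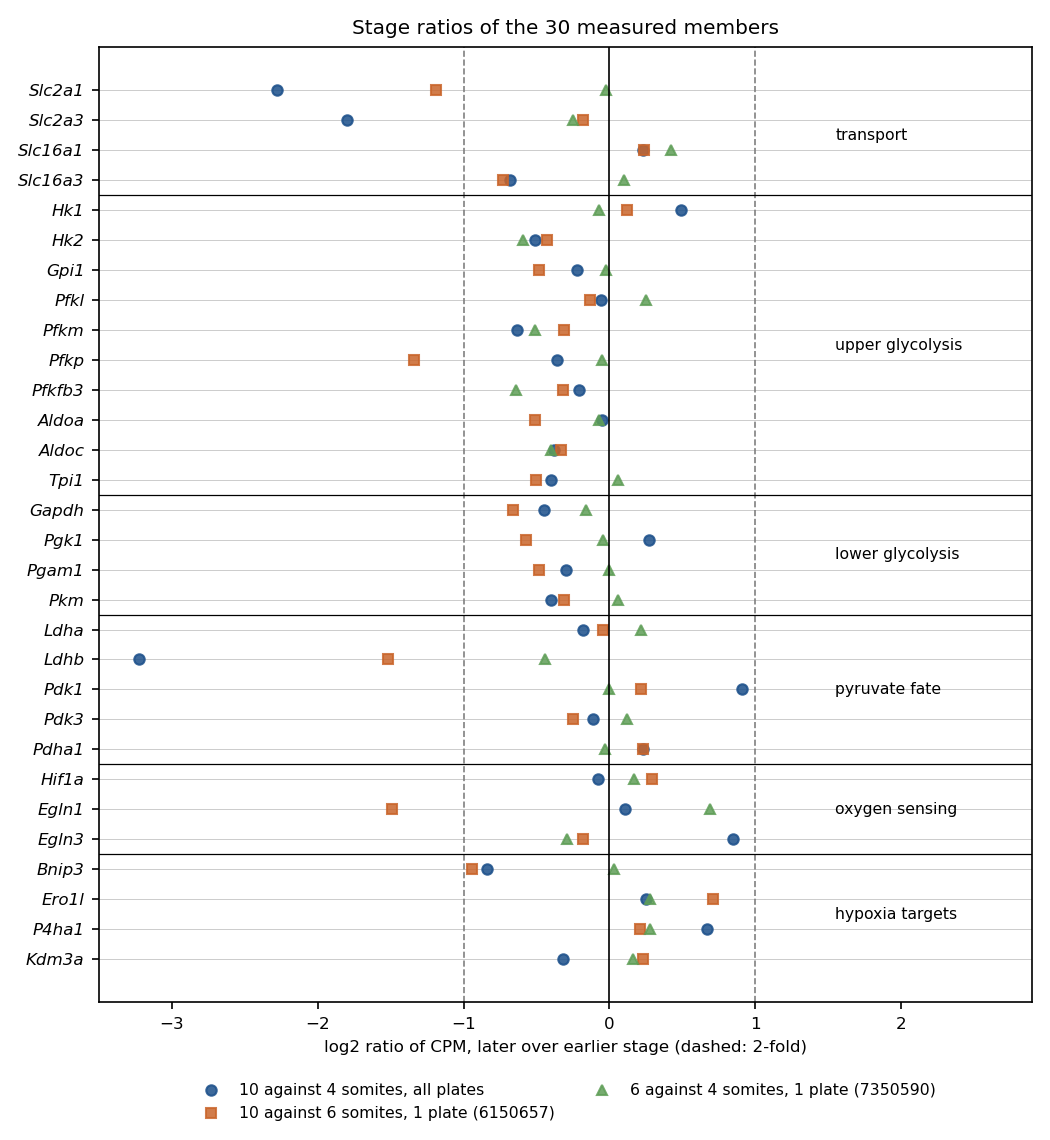
Log2 ratio of CPM, later over earlier stage, for the 30 members measured between 10 and 4 somites, grouped by role. Circles are 10 against 4 somites over all plates, squares 10 against 6 and triangles 6 against 4, each on the plate that holds both stages, and dashed lines mark 2-fold. Slc2a1 and Ldhb lie left of the line for 10 against 4 and for 10 against 6, and no triangle passes a line.

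Cells with and without Sox10 reads were then compared within each stage. The smaller class held 39 cells with them at 4 somites, 55 cells without them at 8 and 83 without them at 10. Their median depths, with Sox10 reads given first, were 484287 and 466398 reads at 4 somites, 321674 and 356675 at 6, 512914 and 526955 at 8, and 364291 and 305774 at 10. The classes also differed in markers of other cell types. Those of neuroepithelium, endothelium and mesoderm had higher sums without Sox10 reads at every stage, and those of surface ectoderm at every stage except 4 somites. Erythroid markers summed to 1.29, 88.9, 198.3 and 2.99 CPM with Sox10 reads at 4, 6, 8 and 10 somites. Without Sox10 reads they summed to 2.32, 145.3, 1.49 and 2.22 CPM. Surface ectoderm markers summed to 619.1, 349.2, 256.96 and 139.7 CPM in cells with Sox10 reads and to 478.7, 730.9, 593.9 and 747.1 CPM in cells without, at 4, 6, 8 and 10 somites. Endothelium markers summed to 13.4, 54.3, 83.3 and 71.4 CPM with and 107.3, 203.7, 494.1 and 418.4 CPM without Sox10 reads. Neuroepithelium markers ran from 52.5 to 144.2 CPM with and from 236.6 to 287.1 CPM without, and mesoderm markers had 4.99 CPM with and 44.2 CPM without at 4 somites, and their sum was higher without Sox10 reads at each later stage. The part of these cells in the results below was not tested.

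Slc2a1 was lower in cells with Sox10 reads than in all cells without them, summed, at every stage. It had 2331 CPM with and 3404 CPM without Sox10 reads at 4 somites, 1532 and 2967 CPM at 6, 850.8 and 1577 CPM at 8, and 527.4 and 1326 CPM at 10. The log2 ratios were −0.55, −0.95, −0.89 and −1.33, the last past 2-fold. In all 8 combinations of stage and plate with at least 10 cells of each class the ratio was negative, between −0.48 and −1.49. Without the cells of over 9500 genes, nearly all in the class with Sox10 reads, the ratio was −0.62, −1.04, −1.27 and −1.68.

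Slc2a3 behaved otherwise at the first stage. At 4 somites it had 2154 CPM in cells with and 1908 CPM in cells without Sox10 reads. The log2 ratio was 0.18, and 0.07 and 0.15 on the 2 plates. Without the cell of most Slc2a3 reads in the class with Sox10 reads, these ratios were 0.06, −0.13 and 0.00. Without such a cell in each class, they were 0.10, −0.02 and 0.06. At 6 somites Slc2a3 had 712.6 and 1663 CPM (−1.22), at 8 somites 624.5 and 1277 CPM (−1.03), and at 10 somites 325.6 and 1727 CPM (−2.41). On the other 6 combinations of stage and plate the ratio lay between −1.03 and −3.63, so the plates of 4 somites and those of later stages did not overlap. At 8 somites 1 of the 55 cells without Sox10 reads held 43.2% of the Slc2a3 reads of its class. Without it that class had 736.5 CPM and the ratio was −0.24, no longer 2-fold, and −0.63 without the cell of most Slc2a3 reads in each class. The share of cells with Sox10 reads that had a Slc2a3 read, at 50000 reads a cell, was 100%, 95.6%, 84.9% and 67.4% over the stages. In cells without Sox10 reads it was 97.2%, 95.9%, 87.3% and 77.1%. Without the cells of over 9500 genes the ratio at 10 somites was −3.86, with 118.5 CPM in cells with and 1727 CPM in cells without Sox10 reads.

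**Figure D4:**
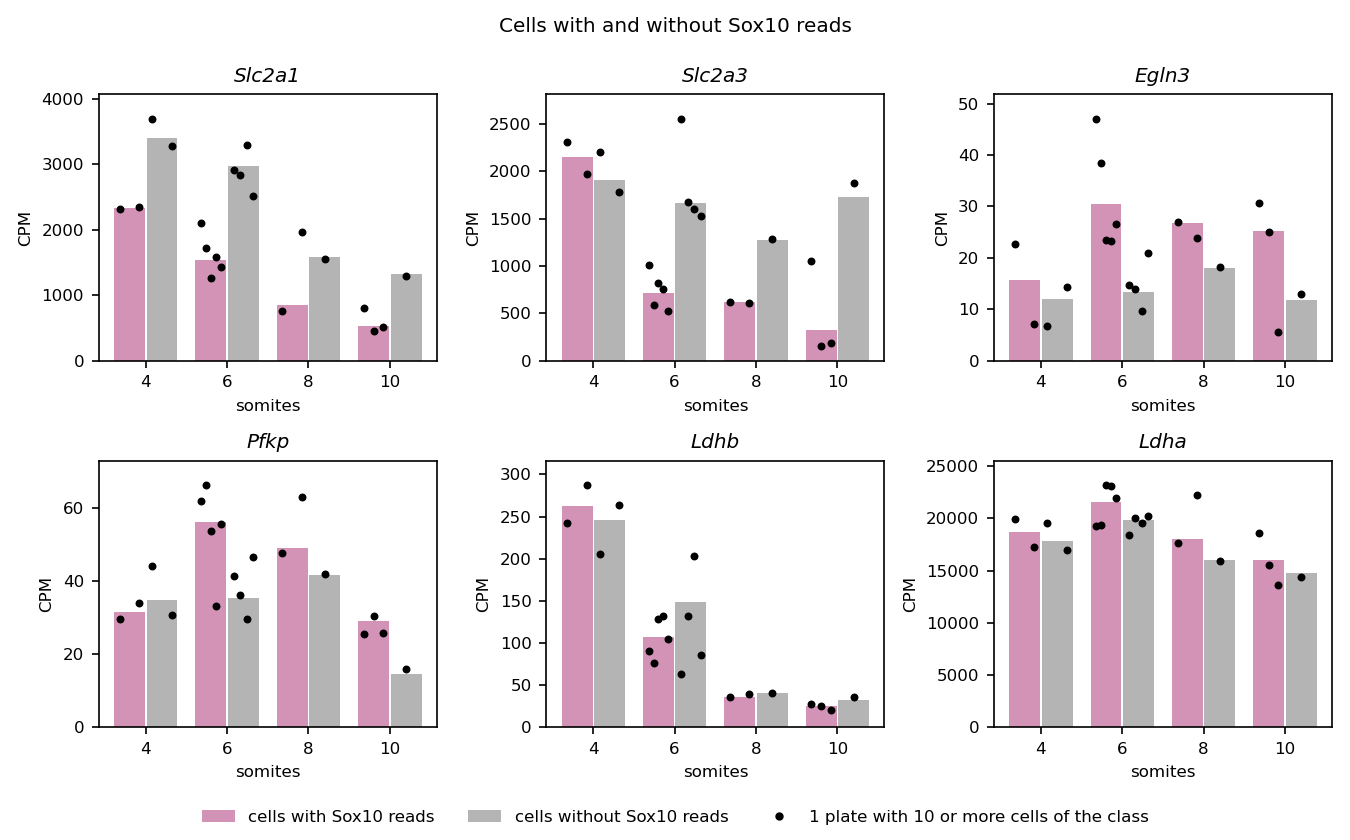
Levels in CPM of 6 members in cells with (left bar) and without (right bar) Sox10 reads, against the stage in somites. Bars sum all cells of the class and stage, and dots are plates with at least 10 cells of the class. Slc2a1 is lower with Sox10 reads at each stage, Slc2a3 from 6 somites on, and Ldhb drops with stage in both classes.

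Among the other members, few differed by class. At 4 somites 1 of 30 measured members was 2-fold lower with Sox10 reads, Aldoc at −1.63 (2.73 CPM with and 8.51 CPM without), where 4.04% of genes were, and 0 were higher, where 1.99% were. At 6 somites Slc2a3 was lower (4.92% of genes) and Egln3 higher, at 1.18 (2.0%). At 8 somites Slc2a3, by way of the 1 cell named above, and Egln1 (−1.38) were lower (8.52%) and 0 were higher (2.46%). At 10 somites Slc2a1 and Slc2a3 were lower (10.5%), and Pfkp (1.01) and Egln3 (1.1) were higher (2.14%). On the largest plate of 10 somites, which alone held at least 10 cells of each class at this stage, Pfkp gave 0.92 and Egln3 0.94, both under 2-fold. Egln3 had 15.7, 30.4, 26.8 and 25.2 CPM in cells with Sox10 reads and 12.05, 13.4, 17.998 and 11.7 CPM in cells without, over the 4 stages. It was higher with Sox10 reads in 7 of the 8 combinations of stage and plate, and lower at 4 somites on the plate shared with 6 (7.19 CPM with and 14.4 CPM without). Pfkp had 29.2 CPM with and 14.5 CPM without Sox10 reads at 10 somites, and was higher in 7 of the 8 combinations. Of 29 members measured in all 8 combinations, 3 were lower with Sox10 reads in each (Slc2a1, Gpi1 and Bnip3), against 6.65% of genes. Another 4 were higher in each (Aldoa, Pgk1, Ldha and Hif1a), against 3.41%, by small amounts: Ldha by 0.02 to 0.24 and Aldoa by 0.05 to 0.27 on the log2 scale. The members' median log2 ratio was 0.01, 0.05, −0.02 and −0.01 over the stages, against −0.04, −0.06, −0.06 and −0.08 over all genes.

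Since the share with Sox10 reads moves with stage, 10 and 4 somites were also compared within each class. In cells with Sox10 reads (39 of them at 4 somites), Slc2a1 (−2.14), Slc2a3 (−2.73) and Ldhb (−3.38) were 2-fold lower at 10, where 6.85% of genes were, and Hk1 was higher at 1.0, where 7.34% were. In cells without Sox10 reads (83 of them at 10 somites), Slc2a1 (−1.36), Pfkp (−1.26), Aldoc (−1.39) and Ldhb (−2.92) were lower, against 2.64% of genes, and Pdk1 was higher at 1.07, against 8.83%. Slc2a3 had a log2 ratio of −0.14 there, with 1727 CPM at 10 somites and 1908 at 4. Of the Slc2a3 reads of this class at 10 somites, 1 cell held 28.3%, and without that cell the ratio was −0.59. The cells of this class differed widely in Slc2a3 by their markers, as given below. Slc2a1 and Ldhb were thus 2-fold lower at 10 somites in both classes, and Slc2a3 in the class with Sox10 reads. The difference between the classes was not tested, as each is 1 pool. On the plate shared by 6, 8 and 10 somites, cells with Sox10 reads had Slc2a1 at 753.5 CPM at 8 somites against 1715 CPM at 6 (−1.19) and at 802.8 CPM at 10 (−1.10 against 6). In these cells 4 of 30 measured members were 2-fold lower at 8 than at 6 somites, Slc2a1, Ldhb (−1.11), Egln1 (−1.31) and Bnip3 (−1.03), where 2.67% of genes were, and 0 were higher, where 3.08% were. At 10 over 6 somites 5 were lower, Slc2a1, Pfkp (−1.38), Ldhb (−1.50), Egln1 (−1.41) and Bnip3 (−1.03), where 4.91% of genes were, and 0 were higher, where 6.27% were. In this plate's cells without Sox10 reads 0 of 29 members were 2-fold lower (4.48% of genes) or higher (10.5%) at 8 over 6 somites. Slc2a1 was at −0.91 there. Slc2a3 lay at the edge of 2-fold, with 1282 CPM in 54 cells of 8 and 2556 CPM in 21 cells of 6 somites. Its log2 ratio was −1.81 without the cell of most Slc2a3 reads at 8 somites, and −0.40 without such a cell at 6. Without such a cell at each stage it was −1.21. In cells with Sox10 reads on the plate, Slc2a3 was at 0.08 for 8 and 0.83 for 10 over 6 somites, and at 1.16 and −1.61 without the cells of over 9500 genes. Without only the cell of most Slc2a3 reads at the later stage, the ratios of 0.08 and 0.83 became −0.34 and −0.02. That cell held 26.1% of the Slc2a3 reads of this class at 8 somites on the plate, and the ratio of 1.16 was not computed without it. On the plate shared by 4 and 6 somites, 17 cells of 6 and 14 of 4 somites with Sox10 reads gave −0.57 for Slc2a1. Of 29 measured members 4 were 2-fold lower, Slc2a3 (−1.38), Hk1 (−2.75), Pfkm (−2.65) and Ldhb (−1.12), where 11.8% of genes were, and Egln1 (2.8) and Egln3 (1.68) were higher, where 11.2% were. In cells without Sox10 reads there, 0 of 31 members were 2-fold lower (1.29% of genes) or higher (1.95%).

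The cells without Sox10 reads were read by the other markers, as cells with reads of at least 3 genes of a list at 50000 reads. A cell can count under several lists. At 6 somites, Slc2a3 had 3286 CPM in 160 cells with surface ectoderm markers, 1318 CPM in those with neuroepithelium markers, 349.1 CPM in 37 with endothelium markers and 258.6 CPM in 48 with mesoderm markers, against 712.6 CPM in cells with Sox10 reads. At 10 somites it had 1141 CPM in 42 cells with neuroepithelium markers, 136.1 CPM in 11 with endothelium markers and 46.8 CPM in 17 with mesoderm markers. In 13 cells of no list it had 390.2 CPM, and in cells with Sox10 reads 325.6 CPM. Each group lies below the 1727 CPM of all cells without Sox10 reads at 10 somites, so cells outside these groups raised that sum. Their part in the ratios that use it was not tested. Mesoderm markers marked low Slc2a3 already at 4 somites, at 47.6 CPM in 11 cells. Slc2a1 was less uneven: at 6 somites it had 3464 CPM with surface ectoderm, 3427 CPM with neuroepithelium, 2119 CPM with endothelium and 1606 CPM with mesoderm markers. Pdk1 was high with endothelium markers, at 622.2 CPM in 11 cells of 10 somites and 359.1 CPM in 37 cells of 6. Cells with mesoderm markers had 313.7, 275.8 and 326.7 CPM of Pdk1 at 4, 6 and 10 somites. Cells with Sox10 reads had 106.1, 155.1 and 193.2 CPM at these stages. Egln3 at 6 somites had 53.5 CPM with endothelium, 27.3 CPM with mesoderm, 18.8 CPM with surface ectoderm and 9.59 CPM with neuroepithelium markers. Cells with Sox10 reads had 30.4 CPM of it there. At 10 somites it had 42.95 CPM with endothelium, 13.98 CPM with mesoderm and 4.25 CPM with neuroepithelium markers, against 25.2 CPM with Sox10 reads. Ldhb at 6 somites had 167.98 CPM with surface ectoderm and 164.1 CPM with neuroepithelium markers, and 44.6 CPM with mesoderm and 21.02 CPM with endothelium markers. Within the cells with neuroepithelium markers Slc2a1 had 3966, 3427, 2128 and 1850 CPM and Ldhb 256.8, 164.1, 51.6 and 37.8 CPM at 4, 6, 8 and 10 somites, so both were lower at the later stages there too. Slc2a3 had 2025, 1318, 807.6 and 1141 CPM in these cells, lower at each later stage than at 4 somites but higher at 10 than at 8. Its level in the median cell was 1658, 956.2, 566.2 and 581.5 CPM.

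Which members varied together from cell to cell was described by Spearman's rho of CPM within the 6 combinations of stage and plate with at least 100 cells. Cells of a combination share a plate, and depth and cell type differ among them. Over all pairs of the 27 members with at least 20 CPM, the median of the mean rho was 0.04. The highest were Aldoa with Pgk1 at 0.54 (0.45 to 0.63 over the 6 combinations), Pkm with Ldha at 0.47, Pgam1 with Ldha at 0.45 and Slc2a1 with Slc2a3 at 0.45 (0.30 to 0.58). The lowest was Slc2a3 with Aldoa at −0.28 (−0.44 to −0.09). Slc2a1 with Ldha had −0.18 (−0.36 to 0.10).

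Further genes of the same pathways were read from further lists. Of 10 measured genes among 23 other glycolysis and sugar carrier genes, 0 passed 2-fold between 10 and 4 somites (5.44% of all genes were lower and 5.34% higher), and so did 0 of 6 in the pentose phosphate path, 0 of 16 in the TCA cycle and 0 of 6 among partners and regulators of Hif1a. Of 8 measured genes between pyruvate and acetyl-CoA, 1 was 2-fold higher, Mpc2, a subunit of the mitochondrial pyruvate carrier, with 9.12 CPM at 10 and 4.20 CPM at 4 somites. Of 12 measured further hypoxia targets, 1 was higher, Car12, a carbonic anhydrase, with 25.3 and 8.37 CPM. Neither passed 2-fold between stages within a plate. Within plates 5 other genes of these lists did, each in 1 comparison. Pfkfb4 was lower at 6 than at 4 somites (−1.17), Slc2a10 lower (−3.01) and Pdp2 higher (1.02) at 10 than at 6, and in the 15 cells of 8 somites against 4 somites Vhl was lower (−1.02) and Bhlhe40 higher, with 22.6 CPM at 8 and 0.0523 CPM (2 reads) at 4. These 7 genes are named after their values were seen. The list medians, at −0.26, −0.18, −0.06, −0.17, −0.10 and 0.01 in that order, stood beside 0.01 over all genes.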

How the data were processed

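The authors deposited counts of reads per gene and cell, whole numbers with no molecular identifiers and no scaling, per the values and the labels. Tools credited to the submitters' processing notes are bcl2fastq 2.18 and STAR 2.6, with build mm10. The sources used here give no counter, annotation or strand setting. Stages came from the labels. Plates were taken from a number inside the sample titles, whose meaning the labels do not state.

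Spike-ins and Rn45s were left out of totals. Cells needed 50000 reads and 1500 genes, and 56 were left out. Reads were summed over cells, 0.5 reads were added, and log2 ratios of CPM were taken for genes with a mean of at least 5 CPM, with 3 reads or fewer in both groups giving none. Intervals are exact Poisson or Clopper-Pearson intervals at 95%. The scripts ran in Python 3.11.15 with SciPy 1.17.1 and were tested on simulated data. edgeR 4.0.16 and DESeq2 1.42.0 gave scaling factors only. Promoters are RefSeq's.

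The members and lists were chosen with earlier results of these data known. All members are accounted for. Plate values are given for members past 2-fold at 10 over 4 somites, between stages within a plate or between Sox10 classes, and for the 5 highest per kilobase, and those of Slc16a1, Slc16a3, Pdk1 and Bnip3 were added after their values were seen. The limit of 9500 genes per cell, ratios without the cell of most reads and the sum of Eno1 and Eno1b were chosen after the data were seen. Doublets were not called.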

Additional observations from a re-analysis of the deposited data

Results flagged for a closer look

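Slc2a3 stood out because its ratio between cells with and without Sox10 reads had opposite signs at different stages. The log2 ratio was 0.18 at 4 somites and −1.22, −1.03 and −2.41 at 6, 8 and 10 somites. Without the cell of most Slc2a3 reads in the class with Sox10 reads, it was 0.06 at 4 somites. On the plates of that stage it was then −0.13 and 0.00, against 0.07 and 0.15 with all cells. Without such a cell in each class it was 0.10 at 4 somites. At 8 somites it was −0.24 without 1 cell of the class without Sox10 reads. The difference between the stages was not tested, since each stage is 1 pool.

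Pfkp showed the same kind of change, with −0.14 at 4 somites and 0.67, 0.23 and 1.01 at 6, 8 and 10. Its ratio was above 0 in 7 of the 8 combinations of stage and plate. These 8 hold both plates of 4 somites, so the plates of that stage did not both have the negative sign. This difference was not tested either, and the share of its reads that comes from the exon overlap with Pitrm1 is not known.

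Aldoc had −1.63 at 4 somites, where 2.73 CPM stood in cells with and 8.51 CPM in cells without Sox10 reads, and 0.72 at 6 somites, with 12.6 and 7.66 CPM. The difference was not tested.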

How the results depend on the processing

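Log2 ratios of Slc2a1, Slc2a3 and Ldhb for 10 over 4 somites stayed below −1 under all 19 alternatives, at −2.40 to −1.98, −3.41 to −1.23 and −3.37 to −2.97. Of the alternative values for single members 77 moved by more than the spread over the plates of 6 somites. No member past 2-fold changed sign for 10 over 4 somites, but 7 of the 30 measured members, all with ratios under 2-fold, had the opposite sign under at least 1 alternative: Hk2, Pfkl, Aldoa, Aldoc, Pdk3, Hif1a and Egln1. Of the medians and counts 38 moved, and the cause was not tested. For 10 over 4 somites, totals with Rn45s gave a median of −0.05 and 2 higher members, no minimum CPM gave −0.32 and 5 lower, and leaving out either plate of 4 somites gave 1 higher. For 6 over 4 on their shared plate, totals with Rn45s gave a median of −0.35, spike-in totals −3.60 with 30 lower, and leaving out cells of other types 2 lower. For 8 over 6 on their shared plate, totals with Rn45s gave 0 lower, spike-in totals a median of −2.78 with 30 lower, no minimum CPM 1 higher, 20 CPM 1 lower, and leaving out cells of over 9500 genes 4 lower. For 10 over 6 there, spike-in totals gave −3.24 with 30 lower, leaving out cells of other types −0.46 and cells of over 9500 genes −0.48.

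Between cells with and without Sox10 reads at 6 somites, 2 members were lower with no minimum CPM, without cells of other types, without cells of over 9500 genes, without the smallest plate, without the plate shared with 8 and 10, and with classes set at 50000 reads. Leaving out the largest plate gave 2 higher there, and the plate shared with 4 gave 0 higher. At 10 somites TMM and DESeq2 factors gave a median of 0.15 each. There 1 member was higher by mean CPM per cell, with the stricter filter on cells, at 20 CPM, with 5 added reads, without cells of other types, without the plate of 12 cells and with classes set at 50000 reads, and 0 without the plate shared with 6 and 8.

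No paired analysis was possible because the labels give no replicate numbers and each stage is 1 pool. Counting intervals were narrower than the spread over plates for Slc2a1 and Ldhb, and other limits are that embryos are not named, that few plates hold more than 1 stage, and that relative levels cannot show a change of all genes together. The limit of 9500 genes, the cells with the most reads of a gene and the sum of Eno1 with Eno1b, 0.13 against −0.34 for Eno1, were chosen after seeing the data.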

Other observations

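A few cells carried much of the Slc2a3 signal at the later stages. The cell with the most Slc2a3 reads of a stage held 2.62%, 2.88%, 17.8% and 14.6% of them at 4, 6, 8 and 10 somites. The level in that cell was 37800 CPM at 8 and 23082 CPM at 10 somites, and without it these stages stood at 652.8 and 480.9 CPM.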
